A study of Homo sapiens with 6 samples.

Results

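The genes of the amyloid precursor protein APP and of the enzymes that cut it were followed in human neuroblastoma SH-SY5Y cells after 4 h with unconjugated bilirubin (UCB). The members were the substrates APP, APLP1 and APLP2, the secretase genes BACE1, PSEN2, NCSTN, ADAM10 and ADAM17, and the peptide-degrading enzyme gene IDE. They were taken by name, and every probe set that the platform annotation gives to one of them alone was used, which made 25 of 22215 probe sets for 9 of 11963 named genes. A probe set is a group of short oligonucleotides on the array that read one transcript or a group of related ones. SH-SY5Y is an established line of sympathetic neuron-like tumour cells. Cells of 3 flasks received medium with free bilirubin at 140 nM (Bf 140 nM), and cells of 3 other flasks received medium with the solvent dimethyl sulfoxide at 0.6% (DMSO 0.6%). UCB was itself dissolved in DMSO, so both groups shared the solvent, and per the labels the flasks were separate biological replicates of this 1 line, with 1 Affymetrix array each.

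APP is a membrane protein that is cut in alternative ways. The alpha-secretases ADAM10 and ADAM17 cut inside the amyloid-beta stretch and release a soluble ectodomain, whereas BACE1, the beta-secretase, cuts at the start of that stretch. The remaining stub is cut within the membrane by gamma-secretase, a complex in which a presenilin such as PSEN2 is the catalytic subunit and nicastrin (NCSTN) takes part in binding the substrate. APLP1 and APLP2 are homologues of APP that are processed by the same kinds of enzyme but lack the amyloid-beta sequence. IDE, the insulin-degrading enzyme, is a zinc metalloprotease that breaks down amyloid-beta once it is free. The comparison addresses whether early bilirubin exposure is met by a change in the transcripts of this pathway in neuron-like cells.

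Values are normalised levels on a log2 scale, and differences are Bf 140 nM minus DMSO 0.6%. The libraries were not equal in quality. On DMSO 0.6% replicate 3 the 3' control probe set of beta-actin lay 2.21 above the 5' one and that of GAPDH 1.30 above, a sign of labelled transcripts that are short at their 5' end. The beta-actin gap was 0.10 and 0.32 on DMSO 0.6% replicates 1 and 2, and 0.24, 0.49 and 0.89 on Bf 140 nM replicates 1, 2 and 3. The group means were 0.54 for Bf 140 nM and 0.88 for DMSO 0.6% (exact two-sided permutation test, p = 0.9), and since 3 against 3 arrays allow no p below 0.1, this does not show that the groups are alike. Differences are therefore given with and without DMSO 0.6% replicate 3. Noradrenergic neuroblast markers lay above the median probe set for 9 of 11 measured genes, with DBH, GATA3 and DDC among them, while TH, a defining enzyme of these cells, was dim (percentile 12.1) and HAND2 lay just below the middle (percentile 45.7). Of 9 mesenchymal or Schwann-like markers, which mark the other cell type of such cultures, 5 lay above the median probe set, COL3A1 highest at percentile 84.2. The mean level of this list was 8.25 to 8.42 over the Bf 140 nM arrays and 8.21 to 8.46 over the DMSO 0.6% arrays, and its part in the results was not tested. In such bulk samples, fewer cells of a type and less RNA per cell cannot be told apart.

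No difference between the groups was detected for any member. By limma 0 of 25 probe sets passed an adjusted p of 0.1, as did 0 of 22215 (0%) over the whole array, and each member's adjusted p was 1.00. Nor did any member reach an unadjusted p of 0.05, which 17 probe sets of the array did (0.0765%). With the replicate number as a block 0 members reached that level against 92 probe sets (0.414%), and the lowest unadjusted p of a member was 0.153. Both shares were far smaller than a level of 0.05 would give on average without any effect, so p-values ran high over the whole array. The high p-values of the members therefore do not show that they were unchanged. The groups overlapped for all 25 member probe sets, while those of 591 on the array did not (2.66%), 373 of them higher in Bf 140 nM (1.68%) and 218 lower (0.981%). Differences ran from -0.18, for an APP probe set, to 0.23, for one of APLP2, with a median of 0.04 beside a median of 0.03 over all probe sets. For the brightest probe set of each of the 9 genes, the 95% confidence interval of the ratio lay within 1.5-fold in both directions. Over the 25 probe sets this held for 16, and 22 had intervals within 2-fold.

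**Figure D1:**
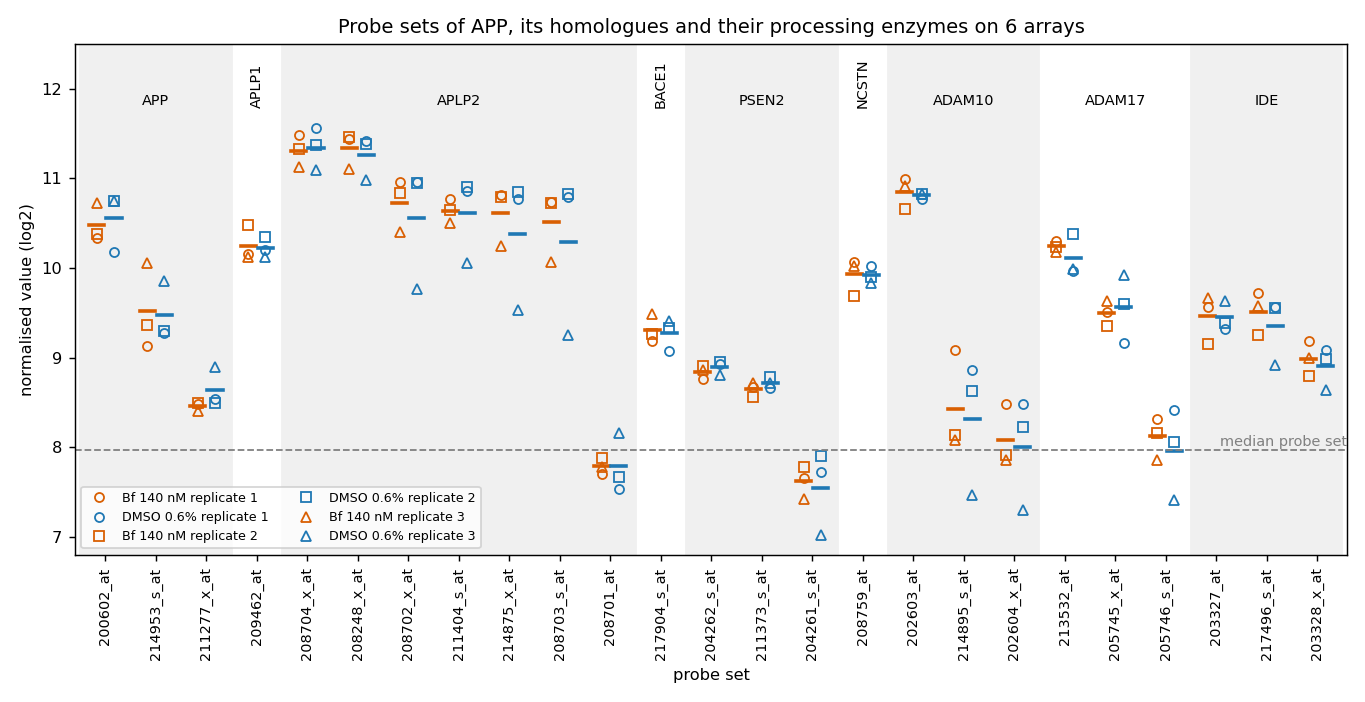
Normalised value (log2) of each of the 25 probe sets on 6 arrays, grouped by gene and ordered by mean within a gene, with Bf 140 nM in orange, DMSO 0.6% in blue, marker shapes for the replicate number and short bars for the means of 3 arrays. The groups overlap for every probe set, and the blue triangle (DMSO 0.6% replicate 3) lies far below the others for 4 probe sets of APLP2 and both dim ones of ADAM10.

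APP itself was bright. Its brightest probe set, 200602_at, lay between percentiles 84.0 and 90.1 of its array, a percentile being the place of a value among all probe sets of the same array. It read 10.34, 10.38 and 10.72 in Bf 140 nM replicates 1, 2 and 3, and 10.18, 10.75 and 10.75 in DMSO 0.6%. The lowest value and the highest were both on DMSO 0.6% arrays, and all treated values fell inside the range of the controls. The means were 10.48 ± 0.21 and 10.56 ± 0.33 (SD, n = 3 each), a ratio of 0.948 (95% CI 0.699 to 1.28). By replicate number the difference was 0.17, -0.37 and -0.03. Over all arrays it was -0.08 (SE 0.19), and it turned to 0.02 without DMSO 0.6% replicate 3. The probe set 214953_s_at gave 9.13, 9.36 and 10.06 in Bf 140 nM and 9.28, 9.30 and 9.86 in DMSO 0.6%. Here the third replicate was the highest of its group on both sides, and the difference was 0.04 (SE 0.27), or 0.23 without the last control. The dimmest, 211277_x_at, read 8.48, 8.49 and 8.40 in Bf 140 nM against 8.54, 8.49 and 8.89 in DMSO 0.6%. Its difference of -0.18 (SE 0.13) was the most negative of the members and came mainly from replicate number 3, at -0.48, and it was -0.06 without DMSO 0.6% replicate 3. The 3 probe sets thus did not share a sign, with 1 above 0 and 2 below. All 3 read higher on DMSO 0.6% replicate 3 than the mean of the other DMSO 0.6% arrays, by 0.28, 0.57 and 0.37.

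The homologue APLP1, whose product is found mainly in neurons, had a single probe set, 209462_at, between percentiles 81.5 and 88.5. It stood at 10.16, 10.48 and 10.12 in Bf 140 nM and at 10.20, 10.35 and 10.12 in DMSO 0.6%. Replicate 2 was highest in both groups, and the third replicates were equal to 2 decimals. The difference was 0.03 (SE 0.13), a ratio of 1.02 (0.826 to 1.26), and -0.02 without DMSO 0.6% replicate 3.

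APLP2, the widely expressed homologue, had 7 probe sets and held the brightest values of the members. Its 208704_x_at lay at percentiles 91.2 to 94.7 and read 11.48, 11.33 and 11.13 in Bf 140 nM and 11.56, 11.37 and 11.09 in DMSO 0.6%, so the groups followed each other replicate by replicate. Its difference was -0.02 (SE 0.15), or -0.15 without DMSO 0.6% replicate 3, and its ratio 0.984 (0.769 to 1.26). For the almost equally bright 208248_x_at the difference was 0.07 (SE 0.16), with 0.02, 0.08 and 0.12 by replicate number, but it turned to -0.07 without DMSO 0.6% replicate 3. A different picture came from 208703_s_at. It gave 10.74, 10.72 and 10.07 in Bf 140 nM and 10.79, 10.83 and 9.25 in DMSO 0.6%. On the last array it was far below both other controls. The same array was lowest for 208702_x_at (9.77), 211404_s_at (10.06) and 214875_x_at (9.53), which lay between 10.77 and 10.96 on DMSO 0.6% replicates 1 and 2. These 4 probe sets had differences of 0.22, 0.17, 0.03 and 0.23, positive because of replicate number 3 (0.82, 0.64, 0.44 and 0.71). Without DMSO 0.6% replicate 3 all 4 turned negative, at -0.30, -0.22, -0.24 and -0.20, with 0.0865 as the lowest unadjusted p, that of 211404_s_at. The seventh, 208701_at, was dim and went the other way, with 8.16 on DMSO 0.6% replicate 3 against 7.53 and 7.67 on the other DMSO 0.6% arrays. Its mean was equal in both groups at 7.79, and without that array the difference was 0.19.

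BACE1, the enzyme that starts amyloid-beta formation, was read by 217904_s_at between percentiles 68.7 and 76.3. The Bf 140 nM arrays gave 9.19, 9.26 and 9.49, and the DMSO 0.6% arrays 9.07, 9.33 and 9.41. Values in both groups were lowest in replicate 1 and highest in replicate 3. A ratio of 1.03 (0.832 to 1.28) resulted, from a difference of 0.05 (SE 0.13) that was 0.12 without DMSO 0.6% replicate 3.

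Next came the genes of gamma-secretase, which makes the final cut. PSEN2 had 3 probe sets, of which 204262_s_at read 8.76, 8.91 and 8.86 in Bf 140 nM and 8.93, 8.95 and 8.81 in DMSO 0.6%. All 6 values lay close together, and the difference was -0.05 (SE 0.10), a ratio of 0.963 (0.822 to 1.13), and -0.10 without DMSO 0.6% replicate 3. Close to it was 211373_s_at at -0.07 (SE 0.10), with a ratio of 0.951 (0.814 to 1.11) and the same difference without that array. Only the third and dimmest, 204261_s_at, was low on DMSO 0.6% replicate 3, at 7.02 against 7.72 and 7.90. It had a difference of 0.07 with that array and of -0.19 without it. NCSTN had 1 probe set, 208759_at, with 10.07, 9.69 and 10.02 in Bf 140 nM and 10.02, 9.90 and 9.83 in DMSO 0.6%. Its lowest value and its highest both belonged to Bf 140 nM, and the difference was 0.01 (SE 0.13), a ratio of 1.00 (0.814 to 1.24), and -0.04 without DMSO 0.6% replicate 3.

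Among the alpha-secretases, ADAM10, the main one of neurons, was bright in 202603_at, between percentiles 89.5 and 90.9. Its values were 10.99, 10.66 and 10.91 in Bf 140 nM and 10.77, 10.83 and 10.83 in DMSO 0.6%. The controls lay within the range of the treated arrays, and the ratio was 1.03 (0.855 to 1.24), from a difference of 0.04 (SE 0.11) that was 0.05 without DMSO 0.6% replicate 3. The 2 other probe sets of ADAM10 were dimmer and far more variable. On 214895_s_at the Bf 140 nM arrays read 9.08, 8.14 and 8.08 and the DMSO 0.6% arrays 8.86, 8.63 and 7.47, so replicate 1 was highest and replicate 3 lowest in each group. Its difference of 0.12 (SE 0.41) left the ratio anywhere between 0.560 and 2.10. The pattern of 202604_x_at was alike, with 8.48, 7.91 and 7.86 against 8.48, 8.22 and 7.30 and a difference of 0.08 (SE 0.31). Without DMSO 0.6% replicate 3 these differences were -0.31 and -0.27.

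ADAM17, the tumour necrosis factor converting enzyme, had 213532_at as its brightest probe set, with 10.30, 10.23 and 10.18 in Bf 140 nM and 9.97, 10.38 and 9.99 in DMSO 0.6%. The treated arrays were close together, 2 controls lay below them and 1 above. The difference was 0.13 (SE 0.13), the largest among the brightest probe sets of the 9 genes, with a ratio of 1.09 (0.880 to 1.35) and pair differences of 0.33, -0.15 and 0.19. It was 0.07 without DMSO 0.6% replicate 3. Its 2 other probe sets moved apart on that array, where 205745_x_at was highest of all (9.92) and 205746_s_at lowest (7.41). They had differences of -0.06 (SE 0.19) and 0.16 (SE 0.25), which became 0.12 and -0.12 when the array was left out.

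IDE lay between percentiles 64.5 and 79.1 in its 3 probe sets, and all 3 had differences above 0. The brightest, 203327_at, read 9.57, 9.15 and 9.66 in Bf 140 nM and 9.32, 9.39 and 9.63 in DMSO 0.6%, and the ratio was 1.01 (0.779 to 1.31), with a difference of 0.01 (SE 0.16) that was 0.10 without the last control. For 217496_s_at the values were 9.72, 9.25 and 9.58 against 9.57, 9.55 and 8.92, with the last control lowest. The difference of 0.17 (SE 0.21) turned to -0.04 without that array, and that of 203328_x_at from 0.09 (SE 0.16) to -0.05. For replicate number 2 all 3 probe sets were lower in Bf 140 nM, with differences of -0.24, -0.30 and -0.20, and for numbers 1 and 3 they were higher.

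**Figure D2:**
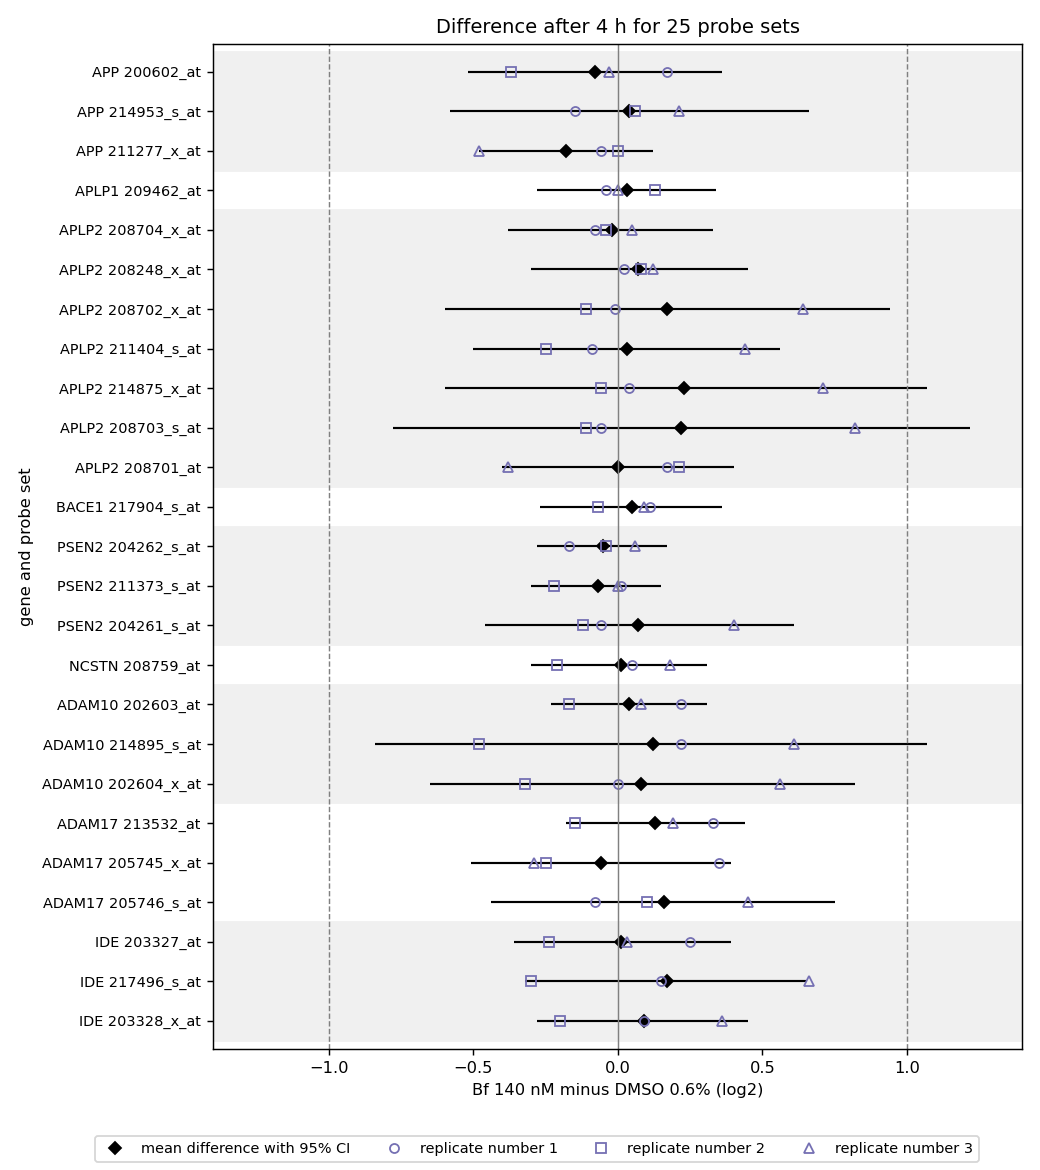
Bf 140 nM minus DMSO 0.6% (log2) for the 25 probe sets, with diamonds and lines for the mean difference and its 95% confidence interval from limma, open symbols for the same-numbered arrays and dashed lines at 2-fold. Every interval crosses 0, and 3 reach past 2-fold (APLP2 214875_x_at and 208703_s_at, and ADAM10 214895_s_at).

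Taken by replicate number, the members leaned in different directions. Of the 25 probe sets 15 were higher in Bf 140 nM for number 1 (60.0%), 6 for number 2 (24.0%) and 19 for number 3 (76.0%). Over all probe sets these shares were 57.3%, 49.1% and 57.5%. The member medians were 0.02, -0.12 and 0.18. All probe sets of ADAM10 and IDE were above 0 for number 3 and below 0 for number 2, and for number 1 they were above 0 too, though 202604_x_at of ADAM10 rounds to 0.00. The probe sets of one gene share their RNA, and same-numbered arrays deviated together over the array, so these counts are descriptions.

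The third DMSO 0.6% array stood out for part of the members only. On it 9 probe sets (36.0%) read more than 0.5 lower than the mean of the other DMSO 0.6% arrays, beside 2510 of the array (11.3%). They were 4 of APLP2, both dim ones of ADAM10, and 1 each of PSEN2, ADAM17 and IDE, with shifts from -0.64 to -1.56. Probe sets of one gene are not independent, and none of them was the brightest of its gene. Of the brightest probe sets 0 of 9 read that low (0.0%), beside 8.4% of all genes. For 8 of the 9 low probe sets, Bf 140 nM replicate 3 was also below the mean of its group's other arrays, as with -0.66 for APLP2 208703_s_at and -0.54 for ADAM10 214895_s_at. The same held for 2074 of the 2510 low probe sets of the array, so it is not particular to the members. Another 3 member probe sets (12.0%) read more than 0.5 higher on DMSO 0.6% replicate 3, beside 860 of the array (3.87%). They were APP 214953_s_at, APLP2 208701_at and ADAM17 205745_x_at. A low value on a control array raises the difference with that array, so the direction in these 9 follows in part from how they were picked. Their differences had a median of 0.16 with the 6 arrays, all above 0, and of -0.22 without DMSO 0.6% replicate 3, all below 0. Of the 2510 such probe sets over the array, 2266 were above 0 with the 6 arrays and 2298 below 0 without that one. Over the 25 probe sets the median went from 0.04 to -0.06, and the number above 0 from 19 to 8. Over all 22215 probe sets the median went from 0.03 to 0.01, and the number above 0 from 14030 to 11828. The groups then did not overlap for 4 of them, beside 8.74% of the array. APLP2 211404_s_at and 208703_s_at and PSEN2 204262_s_at were the lower ones in Bf 140 nM, and APLP2 208701_at was the higher one. By limma without that array none of the 25 passed, at an unadjusted p of 0.05 or after adjustment. Over the array 59 of 22215 probe sets (0.266%) then reached the unadjusted level and 0 passed after adjustment. Low readings went with the name of the probe set too, since 6 of the 10 members ending in _s_at and 3 of the 8 ending in _x_at were among the 9, but none of the 7 ending in plain _at. The first suffix marks probe sets shared by transcripts, usually of one gene, and the second those with probes that may bind other genes. Over the array the shares more than 0.5 lower were 18.9%, 10.1% and 6.39%.

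**Figure D3:**
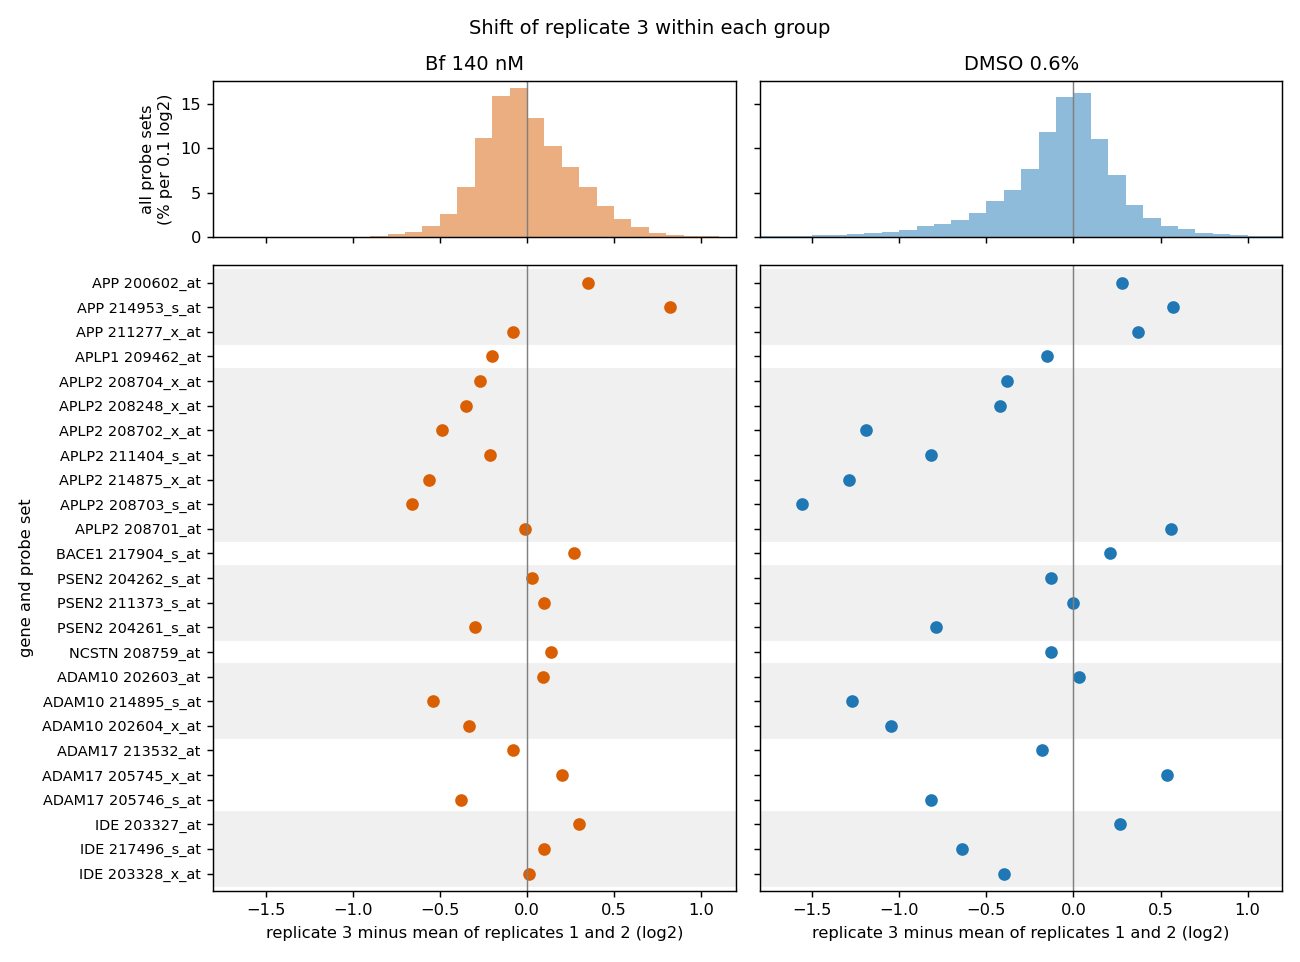
Replicate 3 minus the mean of replicates 1 and 2 of the same group (log2) for each of the 25 probe sets, Bf 140 nM on the left and DMSO 0.6% on the right, under histograms of the same shift over all 22215 probe sets. On the right the 9 low members run from -0.64 to -1.56 while all 3 APP probe sets are above 0. On the left 8 of the same 9 are also below 0, as are 2074 of the 2510 probe sets of the array that were equally low on the right.

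How far probe sets of one gene disagreed was measured on each array. Each value was set against its probe set's own mean over 6 arrays, and the spread is the highest minus the lowest of these deviations within the gene. For 5 of the 6 members with several probe sets, the spread was widest on DMSO 0.6% replicate 3, at 1.53 for APLP2, 1.02 for ADAM17, 0.91 for ADAM10, 0.68 for IDE and 0.60 for PSEN2. On the other 5 arrays it was 0.32 to 0.65 for APLP2, 0.18 to 0.74 for ADAM17, 0.10 to 0.55 for ADAM10, 0.15 to 0.28 for IDE and 0.16 to 0.32 for PSEN2. APP was the exception, with a spread of 0.13 on DMSO 0.6% replicate 3 and its widest, 0.71, on Bf 140 nM replicate 3. Over the 4310 genes with at least 2 probe sets, DMSO 0.6% replicate 3 was the widest array for 48.6%, with a median spread of 0.26 against 0.14 to 0.19 on the others. It was the array with the largest beta-actin and GAPDH gaps, and the part of RNA quality in the spread was not tested. Genes with more probe sets have wider spreads by construction.

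**Figure D4:**
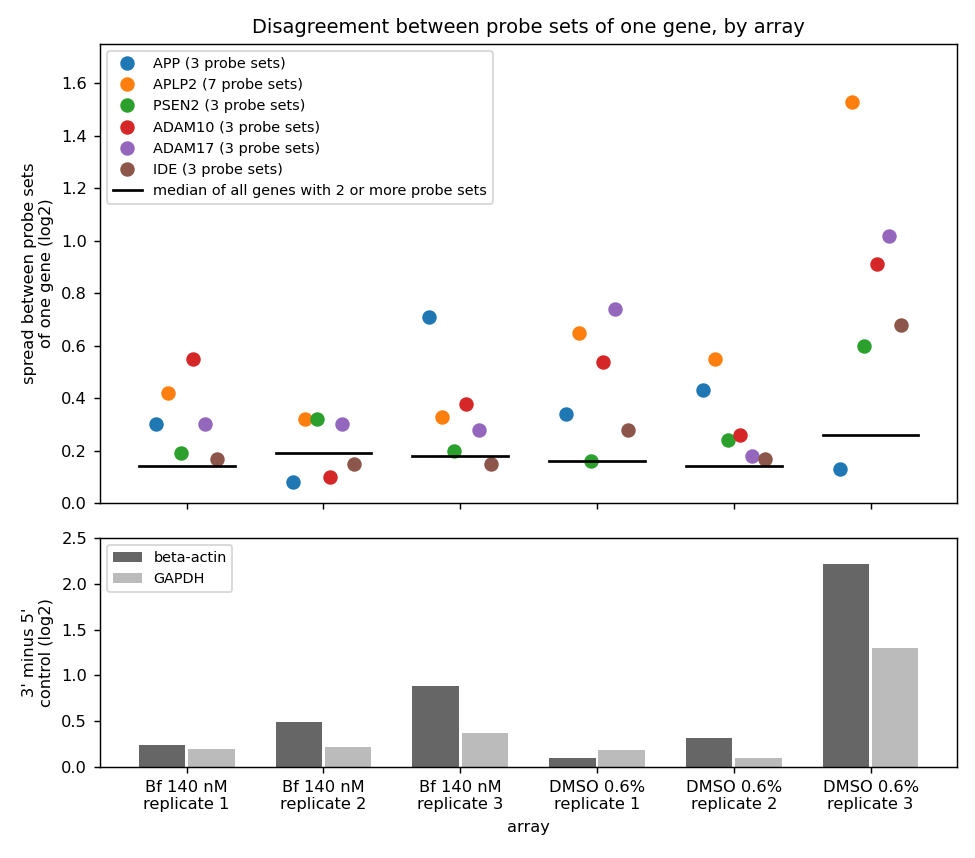
Spread between probe sets of one gene (log2) on each array for the 6 members with several probe sets, with black bars for the median over 4310 genes, above the 3' minus 5' differences (log2) of the beta-actin and GAPDH control probe sets. The last array has the largest control differences (2.21 and 1.30) and the widest spread for 5 of the 6 genes, with APP at 0.13.

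Genes that act around the members were read from 4 lists of other pathway genes, with the brightest probe set for each gene, and 47 of 58 listed genes had one of their own. By limma 0 of 47 passed an adjusted p of 0.1 in either direction, as did 0 of 11963 genes (0%). None of the 47 reached an unadjusted p of 0.05, which only 13 of the 11963 genes did. The groups overlapped for all 47, while they did not for 2.67% of genes. In all 30 were above 0 and 17 below (63.7% of all genes were above 0), with a median of 0.06 that went to -0.03 without DMSO 0.6% replicate 3, beside 0.03 and 0.01 over all genes.

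Partners of gamma-secretase and presenilin homologues had 3 of 5 genes above 0, and their median was 0.04, or 0.02 without DMSO 0.6% replicate 3. PSENEN, the smallest subunit of the complex, read 9.59, 9.23 and 9.94 in Bf 140 nM and 9.46, 9.34 and 9.55 in DMSO 0.6%, which overlapped at a difference of 0.14 (SE 0.18), or 0.19 without the last control. TMED10, a cargo receptor of the secretory pathway that also binds the complex, had a difference of 0.12 (SE 0.16), only 0.02 without that array, and 1 of its 2 probe sets had that sign. Relatives and regulators of the secretases had 10 of 17 genes above 0, and their median of 0.08 turned to -0.03 without DMSO 0.6% replicate 3. RTN4, a reticulon of the endoplasmic reticulum that interacts with BACE1, gave 12.81, 12.79 and 12.82 in Bf 140 nM against 12.79, 12.97 and 13.37 in DMSO 0.6%. The treated arrays were almost equal and only the last control was far above them, so the difference of -0.24 (SE 0.15) shrank to -0.08 without it. RECK, a membrane-anchored inhibitor of metalloproteases, had a difference of 0.20 (SE 0.13), or 0.15 without that control, but its 2 other probe sets had the opposite sign.

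The adaptors and sorting factors of APP had a median of 0.07, or 0.05 without DMSO 0.6% replicate 3, and 11 of 13 genes above 0. APBA1, the neuronal adaptor that binds the cytoplasmic tail of APP, read 7.33, 7.72 and 7.11 in Bf 140 nM and 7.06, 7.25 and 7.16 in DMSO 0.6%. It was dim, the groups overlapped, and the difference of 0.23 (SE 0.16) was the same without DMSO 0.6% replicate 3. VPS35, the core subunit of the retromer that returns cargo from endosomes, was bright (percentile 96.4) and had a difference of -0.16 (SE 0.17) that shrank to -0.03 without that array. Genes of amyloid peptide degradation and clearance split evenly, with 6 of 12 above 0 and a median of 0.00 that became -0.05 without it. CLU, the secreted chaperone clusterin, gave 9.54, 9.63 and 9.92 against 9.49, 9.73 and 9.18, with the lowest value again on DMSO 0.6% replicate 3. Its difference was 0.23 (SE 0.17) and 0.09 without that array. PITRM1, a mitochondrial peptidase, had a difference of 0.17 (SE 0.13), and of 0.05 without it.

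The genes whose profile over the 6 arrays was closest to APP were sought for its brightest probe set among 6847 genes brighter than the median probe set. Likeness was the root-mean-square difference of the values after each profile was centred on its mean. PRSS12, a secreted serine protease of neurons, was closest at 0.034, followed by PAQR3 (0.04), the ubiquitin ligase subunit ANAPC10 (0.051), UBE2V2 (0.059) and the histone acetyltransferase HAT1 (0.06). PRSS12 read 11.90, 12.04 and 12.28 in Bf 140 nM and 11.77, 12.32 and 12.35 in DMSO 0.6%, low on the first arrays of both groups like APP. Of the members, BACE1 was nearest to APP at 0.117, with 121 genes closer, and ADAM17 205745_x_at came next at 0.121, with 145 closer. The other ADAM17 probe sets lay at 0.243 and 0.533. The other APP probe sets were farther off than BACE1, at 0.239 and 0.257, with 2471 and 3027 of the 6847 genes closer. Likeness to the brightest APP probe set was thus not shared by the other probe sets of APP itself.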

How the data were processed

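Total RNA of 6 flasks was hybridised to Affymetrix arrays of human 3' transcript ends. The authors made intensities with GCOS and normalised them by variance stabilization (justvsn) under R 2.5.0, so the deposited values lie on a generalised log2 scale, which understates folds of dim probe sets. The step from probes to probe sets was not found in the sources. Arrays have no read depth, and with 3 a group their number sets the precision. The authors kept probe sets with a Present call and tested them with SAM. Neither step was repeated here: limma 3.58.1 in R 4.3.3 was fitted, without a block, to all 22215 non-control probe sets, with two-sided p-values adjusted by Benjamini-Hochberg at a threshold of 0.1. The procedure was tested on simulated data whose noise was independent between arrays. Such data lack the shared deviations of same-numbered arrays, so the test does not show how the fit behaves with them.

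Of the probe sets, 19064 had 1 gene symbol, 1043 several and 2108 none in the platform annotation. No symbol needed updating against a RefSeq gene table that held the Entrez identifiers of 19052. No coordinates are given, since no build is named. The members, lists and the rule for named genes were chosen with earlier results of these data known. The rule took all members, the 2 genes with the lowest unadjusted p of each pathway list and the 5 closest to APP.

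The labels give both groups replicate numbers 1 to 3, and the sample descriptions carry a further number (3, 5 or 6) that same-numbered arrays share. Deviations from the group means of same-numbered arrays correlated over probe sets at 0.60, 0.23 and 0.57, and 5 of 6 arrays correlated best with their own number. Each correlation was above the minimum of 0.1 for pairing, so the replicate number was a block in an alternative fit. The SEs and confidence intervals given are from the fit without that block. Other alternatives were quantile normalization, median centring, a filter on dim probe sets, a trended and robust variance, the beta-actin gap as a covariate, leaving out _s_at and _x_at probe sets, gene medians and leaving out each array.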

Additional observations from a re-analysis of the deposited data

How the results depend on the processing

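No member passed an adjusted p of 0.1 under any of the 13 alternatives that hold member probe sets, of which the filter on dim probe sets kept 23 and that without _s_at and _x_at 7. With the replicate number as a block it was 0 of 25. No probe set of the whole array passed under any of these alternatives either (0 of 22215 with the block), so the count is not particular to the members. Differences this close to 0 changed sign easily, and the cause was not tested. Quantile normalization turned APLP1 to -0.03, APLP2 208701_at to -0.05 and 211404_s_at to -0.03, APP 214953_s_at to -0.03, BACE1 to -0.02, and IDE 203327_at and NCSTN each to -0.06. Median centring turned APLP1 to -0.0028, APLP2 208701_at to -0.03 and 211404_s_at to -0.0017, IDE 203327_at to -0.02 and NCSTN to -0.03, and it left 2 member probe sets, APP 211277_x_at and PSEN2 204262_s_at, lower in Bf 140 nM without overlap (2.18% of all probe sets did not overlap then). With the beta-actin gap as a covariate ADAM10 202604_x_at and 214895_s_at became -0.11 and -0.12, ADAM17 205745_x_at 0.04, NCSTN -0.02 and PSEN2 204261_s_at -0.06. Under the same covariate APLP2 208248_x_at, 208702_x_at, 208703_s_at and 211404_s_at became -0.01, -0.03, -0.05 and -0.11.

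Leaving out 1 array at a time turned the sign of 21 of 25 probe sets at least once, 15 of them without DMSO 0.6% replicate 3. The ranges were -0.27 to 0.02 for APP 200602_at and -0.24 to 0.23 for 214953_s_at. APLP1 ran from -0.08 to 0.10. In APLP2 they were -0.15 to 0.09 (208704_x_at), -0.07 to 0.19 (208248_x_at), -0.22 to 0.38 (208702_x_at), -0.24 to 0.18 (211404_s_at), -0.20 to 0.46 (214875_x_at), -0.30 to 0.49 (208703_s_at) and -0.13 to 0.19 (208701_at). BACE1 ran from -0.05 to 0.12, PSEN2 204261_s_at from -0.19 to 0.25 and NCSTN from -0.07 to 0.12. ADAM10 gave -0.03 to 0.14 (202603_at), -0.31 to 0.38 (214895_s_at) and -0.27 to 0.32 (202604_x_at), and ADAM17 -0.26 to 0.12 (205745_x_at) and -0.12 to 0.38 (205746_s_at). IDE gave -0.09 to 0.17 (203327_at), -0.04 to 0.30 (217496_s_at) and -0.05 to 0.19 (203328_x_at). The number of member probe sets whose groups did not overlap ran from 0 to 4. Over all probe sets the share was 8.74% without DMSO 0.6% replicate 3 (4 members), 17.6% without Bf 140 nM replicate 2 (3 members), 7.35% and 10.3% without DMSO 0.6% replicates 1 and 2 (2 members each), 10.4% without Bf 140 nM replicate 3 (1 member) and 5.76% without Bf 140 nM replicate 1 (0 members). With 1 array left out, the median of the pathway lists ran from -0.03 to 0.07. The lowest adjusted p of a member was then 0.998. Under every alternative that held them, APP 211277_x_at, PSEN2 204262_s_at and 211373_s_at stayed below 0 and ADAM17 213532_at above 0.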
